A study of Saccharomyces cerevisiae Vin13 with 18 samples.

Results

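Lower glycolysis is the run of enzymes that turns glyceraldehyde phosphate into pyruvate, and in Saccharomyces cerevisiae it is encoded by the 9 genes TDH1, TDH2, TDH3, PGK1, GPM1, ENO1, ENO2, CDC19 and PYK2. They were taken by gene symbol, and 8 of the 9 had a probe set, 1 each, among the 5449 S. cerevisiae genes measured. TDH2 (YJR009C) had no probe set listed under its name and is not analysed here. The cells were VIN13, a commercial wine strain of S. cerevisiae, grown in Chardonnay must at 20 °C from an inoculum at an OD600 of 0.1. Large commercial tanks of 300 L were compared with small microaerobic vials of 80 ml. Samples were taken on day 2 (exponential growth), day 5 (early stationary phase) and day 10 (late stationary phase), with 3 biological replicates per scale and day, 18 arrays in 6 groups. All groups share the strain, the must and the temperature, and no group carries a genetic change. The labels do not say whether the replicates of different days came from the same vessels.

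RNA was read on an Affymetrix array for S. cerevisiae and the fission yeast Schizosaccharomyces pombe. Each value below is the log2 of the deposited probe set intensity, and each difference is on that log2 scale. The S. pombe probe sets served as background, with a 95th percentile of 4.48 on the log2 scale, and between 5352 and 5385 genes lay above it on each array. Arrays of a group correlated least in tanks on day 10, where the lowest r was 0.974, against 0.990 to 0.995 elsewhere. The control probe sets of 8 yeast genes, which compare the 3′ with the 5′ end of a transcript, gave mean log2 differences of 0.83, 1.15 and 1.36 in tanks on days 2, 5 and 10. The same measure was 1.00, 1.46 and 1.78 in vials on these days, so it moved with both day and scale, and its part in the results below was not tested. In bulk samples like these, fewer cells that express a gene and less RNA per cell cannot be told apart.

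Glyceraldehyde phosphate dehydrogenase (TDH1, TDH2 and TDH3) makes NADH, phosphoglycerate kinase (PGK1) makes ATP, and phosphoglycerate mutase (GPM1) and enolase (ENO1 and ENO2) pass the product on to pyruvate kinase (CDC19 and PYK2), which makes ATP again. In laboratory strains these messengers are among the most abundant of the cell. TDH3, ENO2 and CDC19 are known as the isozymes of rapid growth on glucose, while TDH1 and ENO1 are known for expression when glucose is scarce or growth has stopped. PYK2 is known as a glucose-repressed pyruvate kinase that, unlike Cdc19, does not depend on activation by fructose bisphosphate. GCR1, GCR2, RAP1 and TYE7 encode transcription factors of glycolytic promoters.

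The lower glycolysis genes comprised 7 with a signal at the top of the arrays and 1, PYK2, in the middle of the range. ENO1 averaged 15.13 over the 18 arrays, TDH1 15.07, GPM1 15.05, CDC19 15.02, PGK1 14.92, TDH3 14.71 and ENO2 14.60, against 9.41 for PYK2. The highest value of any probe set lay between 15.12 and 15.27 on each array. ENO1 was the brightest of all measured genes on 8 arrays and GPM1 on 2. TDH1, GPM1, ENO1 and CDC19 were among the 20 brightest genes on all 18 arrays, PGK1 on 14, TDH3 on 8 and ENO2 on 4. PYK2 ranked between 2417 and 3928. Levels of different probe sets are not amounts of RNA, and their order is given only to show how close each lies to the upper end of the scale.

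Of the 5449 genes, 86 averaged above 14, and 7 of these 86 are lower glycolysis genes. The range of the 6 group means had a median of 0.78 log2 units over those 86 genes, against 1.18 over the 236 genes between 13 and 14 and 1.40 over the 2224 genes between 9 and 11. The range was 0.052 for TDH1, 0.15 for ENO1, 0.16 for GPM1, 0.19 for CDC19, 0.38 for PGK1, 0.52 for ENO2 and 0.59 for TDH3. PYK2 had a range of 0.99, a 1.99-fold span of its group means. Whether the upper end of the scale compresses the differences given here for the 7 bright genes was not tested.

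**Figure D1:**
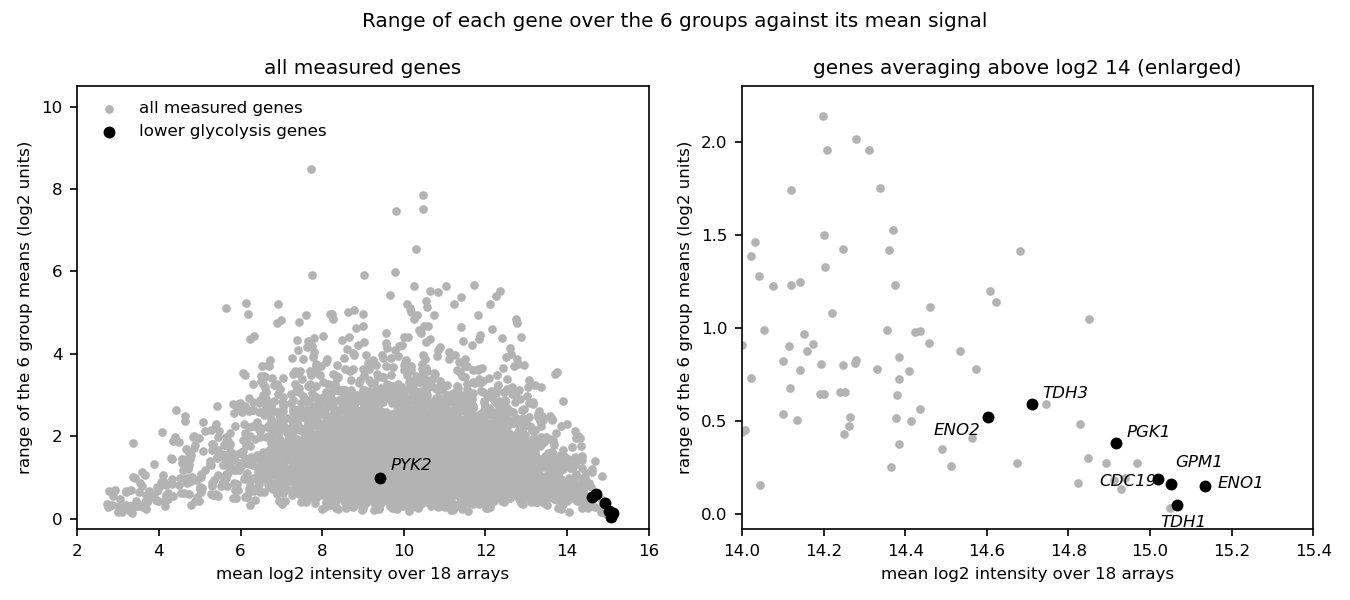
Range of the 6 group means in log2 units (vertical axis) against the mean log2 intensity over 18 arrays (horizontal axis), 1 point per gene, for all 5449 genes on the left and enlarged for the bright end on the right. The 7 bright lower glycolysis genes lie at the right edge with ranges of 0.052 to 0.59, and PYK2 lies in the middle with 0.99.

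TDH1 (YJL052W), the first of the glyceraldehyde phosphate dehydrogenase isozymes, gave a signal at the top of the arrays that hardly moved on its listed probe set. This log2 signal lay between 15.01 and 15.11 on all 18 arrays, with group means of 15.07, 15.06 and 15.04 in tanks on days 2, 5 and 10 and 15.10, 15.09 and 15.05 in vials. It was called in none of the 9 comparisons by limma. Its differences between tanks and vials were -0.029, -0.027 and -0.0037 on days 2, 5 and 10, with a 95% interval on day 10 of -0.14 to 0.13. The array also carries 4 control probe sets for TDH1. Those for the 3′ end, the 5′ end and a middle part shared with related sequences lay between 14.91 and 15.13. The fourth, for the middle of TDH1 alone, was dimmer, at 14.63, 14.68 and 14.59 in tanks and 14.60, 14.74 and 14.53 in vials on days 2, 5 and 10. Between day 5 and day 10 in vials this probe set fell by 0.21 (limma adjusted p = 0.0341), whereas the listed TDH1 probe set differed by -0.040 (adjusted p = 0.666). In vials on days 5 and 10 the 5′ probe set averaged 15.07 and 14.93, and the shared middle one 15.05 and 14.94. The 3′ one averaged 15.11 and 15.08. The dimmer probe set thus moved more than the listed one, and so did the bright 5′ and shared middle ones, whose falls were not called. Why the probe sets differ was not tested, and the use of control probe sets was an addition made after the data were seen. The 3′ end exceeded the 5′ end of TDH1 by 0.013 to 0.064 in tanks and by 0.043 to 0.15 in vials over the group means.

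TDH3 (YGR192C), the main isozyme of growth on glucose, fell during the fermentation at both scales, between days 2 and 5 in tanks and between days 5 and 10 in vials. It read 14.97, 15.01 and 15.00 in the 3 tank arrays of day 2, 14.71, 14.68 and 14.53 on day 5, and 14.46, 14.65 and 14.45 on day 10. In vials it read 14.89, 14.84 and 14.96 on day 2, 14.89, 14.84 and 14.67 on day 5, and 14.35, 14.39 and 14.48 on day 10. In tanks the day 5 values all lay below the day 2 values, and in vials the day 10 values all lay below the day 5 values. The change between days 2 and 5 was -0.35 in tanks (SE 0.086, adjusted p = 0.0014) and -0.097 in vials (adjusted p = 0.326). Between days 5 and 10 it was -0.12 in tanks (adjusted p = 0.277) and -0.39 in vials (SE 0.086, adjusted p = 0.0026). The difference between the scales in the first of these changes did not pass the test (-0.26, SE 0.12, adjusted p = 0.0794). Without vial day 5 replicate 3 it passed, at -0.32 with an adjusted p = 0.0332. It also passed with median centring (-0.32, adjusted p = 0.0409) and array weights (-0.28, adjusted p = 0.0146). A prior that follows the signal level called it too (adjusted p = 0.0279). Between the scales TDH3 was called on no day in the main fit, with differences of 0.098, -0.16 and 0.11 on days 2, 5 and 10. Its groups did not overlap on day 2. The day 5 difference was called with repeated quantile normalization (-0.22, adjusted p = 0.0391) and array weights (-0.17, adjusted p = 0.0317). It was also called with the prior that follows the signal level (adjusted p = 0.0499) and without vial day 5 replicate 3 (-0.22, adjusted p = 0.0440). TDH2 and TDH3 are near-identical copies, and whether the TDH3 probe set also takes up TDH2 RNA was not tested.

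PGK1 (YCR012W), phosphoglycerate kinase, was slightly brighter in tanks on each day, but no day passed the test in the main fit. Its 3 arrays read 15.07, 15.09 and 15.10 in tanks on day 2, against 14.94, 14.96 and 14.92 in vials. On day 5 they read 15.02, 14.99 and 14.98 in tanks, against 14.94, 14.92 and 14.94 in vials. On day 10 they read 14.79, 14.91 and 14.83 in tanks, against 14.76, 14.68 and 14.67 in vials. The groups did not overlap on any day, while the differences were 0.15 (adjusted p = 0.053), 0.065 (adjusted p = 0.407) and 0.14 (adjusted p = 0.0831). The day 2 difference was called with median centring (0.22, adjusted p = 0.0105). A prior that follows the signal level called days 2 and 10 (adjusted p = 0.0041 and 0.0092). Array weights called both days too (adjusted p = 0.0190 and 0.0251). Between days 5 and 10 PGK1 fell in vials by 0.23 (SE 0.066, adjusted p = 0.0165). This call was lost without vial day 10 replicate 2 or replicate 3, where the change was between -0.22 and -0.21 with an adjusted p of 0.0551 to 0.0556, and when only the groups compared were fitted (adjusted p = 0.0803). In tanks the same step was -0.15 (adjusted p = 0.0778), or -0.18 (adjusted p = 0.0468) without tank day 10 replicate 2.

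GPM1 (YKL152C), the mutase, was called in none of the 9 comparisons of the main fit. It lay between 14.89 and 15.14 on all arrays, with group means of 15.08, 15.04 and 14.97 in tanks on days 2, 5 and 10 and 15.12, 15.13 and 14.96 in vials. On days 2 and 5 all 3 tank arrays lay below all 3 vial arrays, by mean differences of -0.045 and -0.089. The largest change was between days 5 and 10 in vials, -0.16 with a 95% interval of -0.31 to -0.02 (adjusted p = 0.0753). This change was called with a prior that follows the signal level (adjusted p = 0.0074) and with array weights (-0.19, adjusted p = 0.0057). Its paralog GPM2 is described with the related genes.

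**Figure D2:**
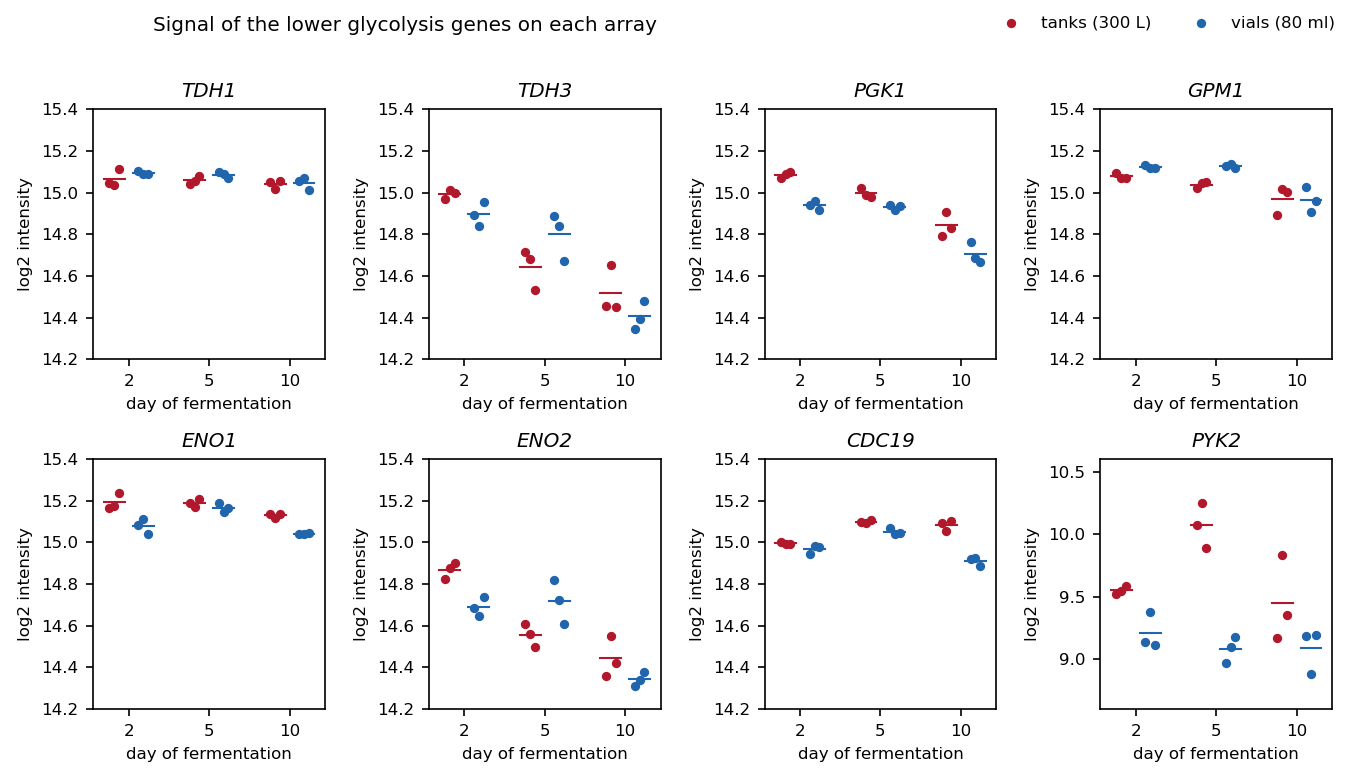
Log2 intensity (vertical axis) of the 8 measured genes on days 2, 5 and 10 (horizontal axis), with 1 point per array, tanks in red left of vials in blue, and a line at each group mean of 3 arrays. TDH3 and ENO2 are lowest on day 10 at both scales, TDH1 stays between 15.01 and 15.11, and PYK2, drawn on its own lower axis, is highest in tanks on day 5.

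ENO2 (YHR174W), the enolase of growth on glucose, followed the course of TDH3. Tank arrays read 14.82, 14.88 and 14.90 on day 2, 14.61, 14.56 and 14.50 on day 5, and 14.36, 14.55 and 14.42 on day 10. Vial arrays read 14.68, 14.65 and 14.74 on day 2, 14.82, 14.72 and 14.61 on day 5, and 14.31, 14.34 and 14.38 on day 10. Tanks thus stood above vials without overlap on day 2 and below them on day 5, where the highest tank array and the lowest vial array almost met. On day 2 the difference was 0.18 (SE 0.078, adjusted p = 0.0495), a call that was lost without any 1 of the 6 arrays of that day and without 8 of the other arrays. Those values lay between 0.15 and 0.20, with adjusted p between 0.0544 and 0.133. It was also lost with the replicate number as a block (adjusted p = 0.0671), when only the groups compared were fitted (adjusted p = 0.0553), and when the quantile normalization was repeated (0.13, adjusted p = 0.153). On day 5 the difference was -0.16 (adjusted p = 0.0829), and -0.22 (adjusted p = 0.0353) without vial day 5 replicate 3.

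Over time ENO2 fell in tanks between days 2 and 5, by 0.31 (SE 0.078, adjusted p = 0.0019), and in vials between days 5 and 10, by 0.38 (SE 0.078, adjusted p = 0.0019). The change between days 2 and 5 differed between the scales: it was -0.31 in tanks and 0.027 in vials, a difference of -0.34 (SE 0.11, 95% interval -0.57 to -0.10, adjusted p = 0.0155). This call held under 32 other settings, including the loss of each of the 18 arrays, with values between -0.40 and -0.29. Some of these settings could not move the ENO2 value. They include another choice among probe sets, TDH1 read from control probe sets, and the loss of an array of day 10. The call was lost when at least a 2-fold change was required.

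ENO1 (YGR254W), the enolase known for expression away from glucose, was called in none of the 9 comparisons of the main fit. Its group means were 15.19, 15.19 and 15.13 in tanks on days 2, 5 and 10, and 15.08, 15.17 and 15.04 in vials. On days 2 and 10 all tank arrays lay above all vial arrays, by 0.11 (95% interval -0.022 to 0.25, adjusted p = 0.115) and 0.091 (95% interval -0.045 to 0.23, adjusted p = 0.236). Both were called with a prior that follows the signal level (adjusted p = 0.0099 and 0.0445). So were its vial changes of 0.088 between days 2 and 5 (adjusted p = 0.0436) and -0.13 between days 5 and 10 (adjusted p = 0.0150). ENO1 and ENO2 are close copies, and cross-hybridisation between them was not tested.

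CDC19 (YAL038W), the main pyruvate kinase, did not follow TDH3 and ENO2. In tanks its arrays read 15.00, 14.99 and 14.99 on day 2, 15.10, 15.09 and 15.11 on day 5, and 15.10, 15.05 and 15.10 on day 10. In vials they read 14.95, 14.98 and 14.98 on day 2, 15.07, 15.04 and 15.05 on day 5, and 14.92, 14.92 and 14.89 on day 10. Tank values lay above vial values without overlap on every day. On day 10 the difference of 0.17 (SE 0.063, 95% interval 0.039 to 0.31) passed the test with an adjusted p = 0.0268. Without tank day 10 replicate 1 or 3 or vial day 10 replicate 2 or 3 the call was lost, at 0.16 to 0.18 with adjusted p between 0.0533 and 0.0705. It was also lost when the quantile normalization was repeated (0.15, adjusted p = 0.0577) and when only the groups compared were fitted (adjusted p = 0.155). On days 2 and 5 the differences were 0.027 and 0.047, and the main fit called no change over time at either scale. With a prior that follows the signal level, the rise between days 2 and 5 in tanks was called (0.10, adjusted p = 0.0165). So was the fall between days 5 and 10 in vials (-0.14, adjusted p = 0.0069), which array weights called too (-0.13, adjusted p = 0.0398). Median centring called the rise between days 2 and 5 in vials (0.17, adjusted p = 0.0279).

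PYK2 (YOR347C), the glucose-repressed pyruvate kinase, was higher in tanks on all 3 days and showed the largest differences of the 8 genes. Its linear intensities were 733, 749 and 769 in tanks on day 2, against 563, 666 and 553 in vials. On day 5 they were 1076, 1218 and 948 in tanks, against 500.5, 549 and 578 in vials. On day 10 they were 575, 914 and 654 in tanks, against 582, 473 and 585 in vials. Tanks lay above vials without overlap on days 2 and 5, while on day 10 the lowest tank array lay below 2 of the vial arrays.

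The log2 difference in PYK2 was 0.34 on day 2 (SE 0.15, adjusted p = 0.0426), 0.99 on day 5 (SE 0.15, adjusted p = 2.67e-05) and 0.36 on day 10 (SE 0.15, adjusted p = 0.0421). On day 5 this is a 1.99-fold higher signal in tanks. The day 5 call held under 32 other settings, including the loss of each of the 18 arrays, with values between 0.90 and 1.08. Many of these settings could not move the PYK2 value. They include another choice among probe sets, TDH1 read from control probe sets, and the loss of an array of another day. The day 5 call was lost when at least a 2-fold change was required. The day 2 call was lost without any 1 of tank day 2 replicates 1 to 3, vial day 2 replicates 1 and 3, tank day 5 replicate 1 and vial day 5 replicate 2. Those values lay between 0.29 and 0.36, with adjusted p up to 0.125. The day 10 call was lost without tank day 10 replicate 2, the array that stood apart from its group, where the difference was 0.17 (adjusted p = 0.266). It was also lost without vial day 10 replicate 2, vial day 5 replicate 2, vial day 2 replicate 1 or tank day 2 replicate 2, when the quantile normalization was repeated, with median centring, and when only the groups compared were fitted.

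In tanks PYK2 rose between days 2 and 5, by 0.52 (SE 0.15, adjusted p = 0.0044), and fell between days 5 and 10, by 0.62 (SE 0.15, adjusted p = 0.0035). The fall was not called when only the groups compared were fitted (adjusted p = 0.0577). In vials its group means were 9.21, 9.08 and 9.09, and the changes of -0.13 and 0.0069 were not called, with 95% intervals of -0.44 to 0.18 and -0.30 to 0.32. The change between days 2 and 5 differed between the scales by 0.65 (SE 0.21, adjusted p = 0.0136), but not when the quantile normalization was repeated (0.43, adjusted p = 0.0978). For the step between days 5 and 10 the scale difference in PYK2 was -0.63 (adjusted p = 0.0958), and -0.82 (adjusted p = 0.0058) without tank day 10 replicate 2.

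Set against all genes, few lower glycolysis genes were called between the scales in the main fit. On day 2, 2 of 8 were called at an adjusted p under 0.05 (ENO2 and PYK2, both higher in tanks), against 77.3% of all 5449 genes in either direction, 38.2% higher and 39.1% lower. On day 5, 1 of 8 was called (PYK2, higher), against 61.9% of all genes, 33.1% higher and 28.8% lower. On day 10, 2 of 8 were called (CDC19 and PYK2, higher), against 58.7%, of which 32.3% were higher and 26.4% lower as shares of all genes. The median log2 difference of the 8 genes was 0.11, -0.0024 and 0.11 on days 2, 5 and 10, against -0.012, 0.024 and 0.029 for all genes. The tank and vial values did not overlap for 7, 5 and 3 of the 8 genes, against 82.2%, 66.2% and 61.6% of all genes. The counts of genes without overlap on days 2 and 5 are thus near the background, and that on day 10 is below it. The count of calls is below it on each day.

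The test draws each gene's SD towards a common prior SD of 0.146. The replicates' own pooled SD was 0.017 for CDC19, 0.025 for ENO1 and TDH1, 0.035 for PGK1, 0.039 for GPM1, 0.069 for ENO2 and 0.085 for TDH3, all below that prior, against 0.19 for PYK2. With a prior that follows the signal level and is estimated robustly, both changed together, 4, 3 and 4 of the 8 genes were called on days 2, 5 and 10. PGK1 and ENO1 were then higher in tanks on days 2 and 10, and TDH3 and ENO2 lower in tanks on day 5.

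**Figure D3:**
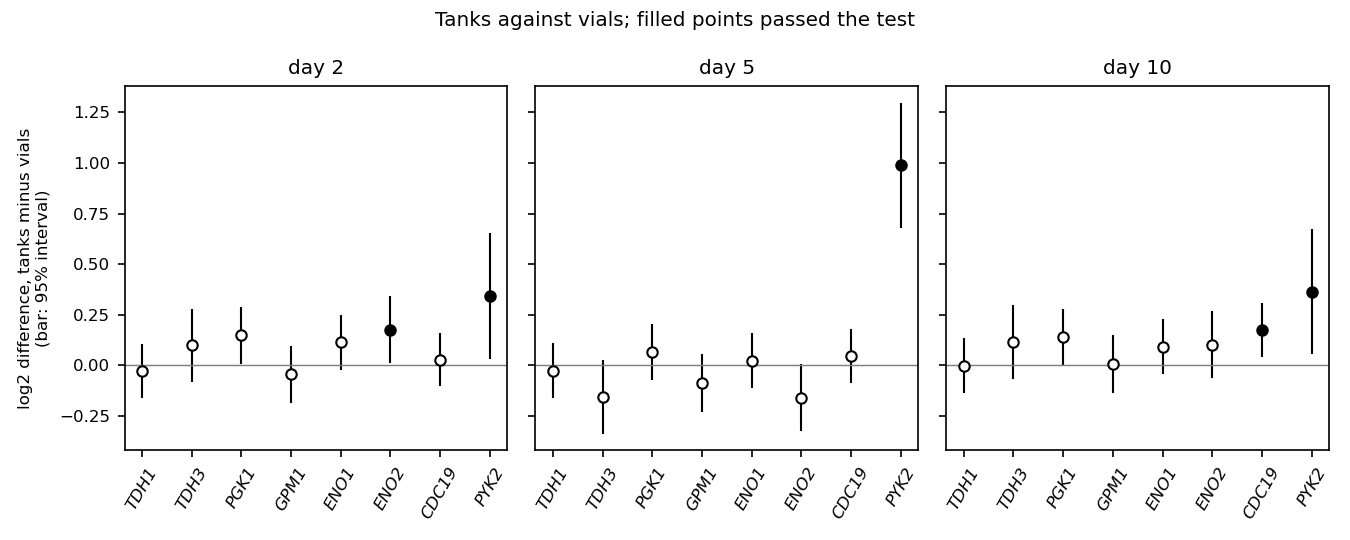
Log2 difference of tanks minus vials (vertical axis) for each of the 8 genes on days 2, 5 and 10, with bars for the 95% interval from limma and filled points where the adjusted p was under 0.05. PYK2 stands highest on each day, at 0.34, 0.99 and 0.36, and the other 7 genes lie between -0.16 and 0.18.

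Over time, the share of the 8 genes called lay below that of all genes in some steps and not in others. Between days 2 and 5 in vials 0 of 8 were called, against 67.6% of all genes, 26.5% higher and 41.1% lower. For those 8 genes the unadjusted p was above 0.05 in each case, while 1 was called with the trended robust prior (ENO1, higher) and 2 with median centring (ENO1 and CDC19, higher). In tanks 3 of 8 were called over the same step (TDH3 and ENO2 lower, PYK2 higher), against 73.3%, with 34.2% higher and 39.1% lower. Between days 5 and 10, 3 of 8 were lower in vials (TDH3, PGK1 and ENO2), against 30.7% of all genes in either direction, 11.3% higher and 19.5% lower. In tanks only PYK2 was called over that step, lower, against 39% of all genes, 15.3% higher and 23.6% lower. The values of the 2 days did not overlap for 2 and 6 of the 8 genes over the first and second step in vials, against 76.9% and 46.2% of all genes. In tanks this held for 6 and 4 of the 8, against 76.6% and 41.5%. The scale-dependent change between days 2 and 5 was called for ENO2 (lower) and PYK2 (higher), against 58.8% of all genes, 32.9% higher and 25.9% lower. That between days 5 and 10 was called by limma for 0 of 8, against 4.92% of all genes, 2.62% higher and 2.29% lower. In the last comparison TDH3, ENO2 and PYK2 had an unadjusted p under 0.05, and array weights called ENO2 and PYK2.

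The neighbouring steps of the pathway gave a frame for these values, from gene lists chosen with earlier results known. Their counts stand beside shares of all genes of 38.2%, 33.1% and 32.3% higher in tanks and 39.1%, 28.8% and 26.4% lower on days 2, 5 and 10. Of the 8 genes of upper glycolysis, 4 were higher in tanks on day 2 and 0 lower (median 0.38). GLK1, glucokinase, differed by 1.41, PFK2, a phosphofructokinase subunit, by 0.70 and HXK1, hexokinase, by 0.68. On day 5, 2 were higher (GLK1 at 0.39 and HXK1 at 0.37) and HXK2, the hexokinase of growth on glucose, was lower at -0.51. On day 10, 4 were higher and 0 lower, with GLK1 at 0.52, HXK1 at 0.40 and PFK1 at 0.26. FBA1, aldolase, and TPI1, triose phosphate isomerase, which stand directly before the dehydrogenase step, were not called on any day, and their differences lay between -0.10 and 0.0088. Of the 4 fermentation genes after pyruvate, PDC6, a minor pyruvate decarboxylase, was lower in tanks on all 3 days (-0.63, -0.73 and -0.48), and PDC1, PDC5 and ADH1 were not called.

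**Figure D4:**
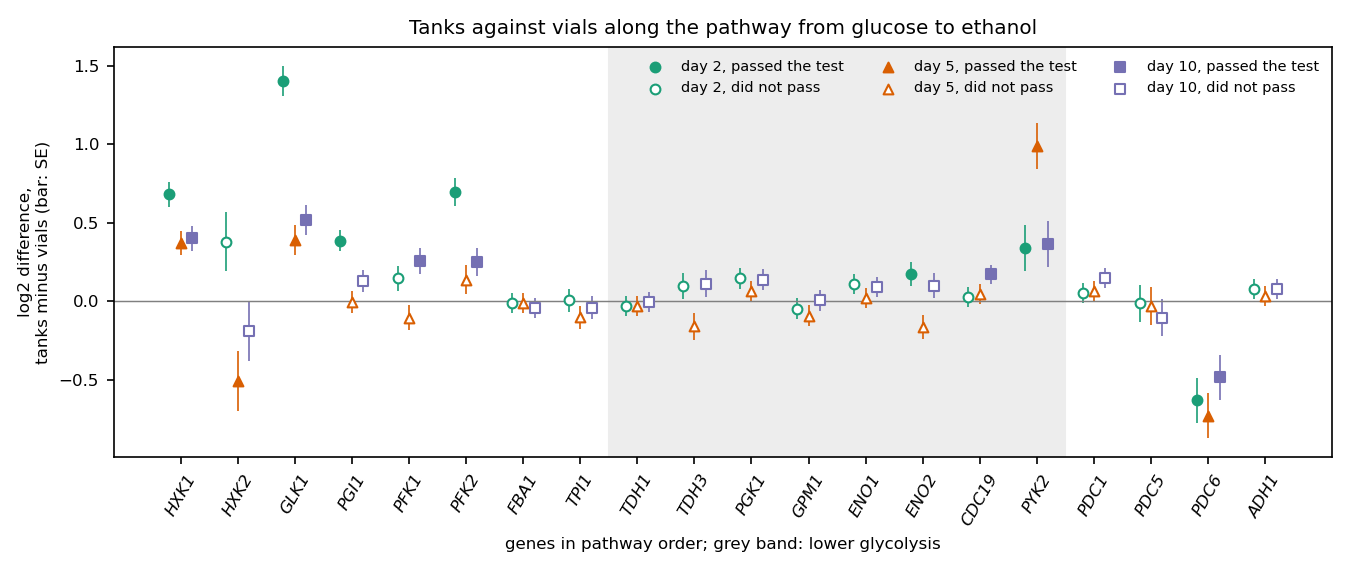
Log2 difference of tanks minus vials (vertical axis, bars SE) for 20 genes in pathway order from hexokinase to alcohol dehydrogenase (horizontal axis), with circles for day 2, triangles for day 5 and squares for day 10, filled where the test was passed. GLK1 reaches 1.41 on day 2 and PYK2 0.99 on day 5, while the genes from FBA1 to CDC19 lie between -0.16 and 0.18.

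Other lists covered genes that run or bypass the pathway in reverse, branches, regulators and paralogs. The shares of all genes given for the neighbouring steps stand beside the counts of these lists too. Of PYC1 and PYC2 (pyruvate carboxylase), PCK1 (which makes phosphoenolpyruvate) and FBP1 (which opposes phosphofructokinase), 3 were higher and PYC1 lower (-0.18) on day 2, and all 4 were higher on days 5 and 10. PCK1, whose product is also the substrate of pyruvate kinase, differed by 0.50, 1.23 and 1.08 on days 2, 5 and 10, and FBP1 by 1.11, 0.80 and 0.62. Among 8 genes of branches off glycolysis (serine and aromatic amino acids from lower intermediates, and glycerol from dihydroxyacetone phosphate, before the dehydrogenase step), 5, 2 and 4 were higher in tanks on days 2, 5 and 10. Lower in tanks were 0, 1 and 0 of them. ARO4, which draws on phosphoenolpyruvate, differed by 1.33 on day 2 and by 0.46 on day 10. GPD1, of glycerol synthesis, differed by 0.60, 0.37 and 0.40. The genes of serine synthesis went both ways on day 5. SER2 was lower in tanks at -0.63, while SER1 averaged 12.40 in tanks against 11.97 in vials. SER1 also averaged higher in tanks on day 2 (11.93 against 11.38) and day 10 (12.02 against 11.62).

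Of the 6 regulators, which include the general factors ABF1 and REB1, 1, 1 and 1 were higher in tanks and 3, 4 and 5 lower on days 2, 5 and 10. RAP1 was the one higher each time (0.49, 0.99 and 0.61). ABF1 was lower each time (-0.80, -0.60 and -0.96), as was GCR2 (-0.77, -0.38 and -0.43). TYE7 was lower on days 2 and 10 (-1.01 and -0.68), and REB1 on days 5 and 10 (-0.38 and -1.11). GCR1 was level between the scales on day 2 (0.026, not called) and lower in tanks on day 5, at -1.29 (SE 0.10, adjusted p = 3.38e-08), and on day 10, at -0.42. Its arrays read 10.07, 10.20 and 10.28 in tanks on day 5, against 11.42, 11.48 and 11.53 in vials. Between days 2 and 5 GCR1 fell by 0.38 in tanks and rose by 0.93 in vials, a scale difference of -1.32 (SE 0.14, adjusted p = 1.86e-06). The same measure was -0.34 for ENO2, -0.26 for TDH3, -0.091 for ENO1, -0.082 for PGK1 and -0.044 for GPM1. It was 0.0014 for TDH1, 0.020 for CDC19 and 0.65 for PYK2, and of these genes only ENO2 and PYK2 were called. Whether GCR1 has a part in any of these values was not tested.

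Among the paralogs of the lower glycolysis genes, 3 of 5 were measured and 0 were called between the scales on day 2, against 77.3% of all genes. GPM2, a homolog of GPM1 regarded as non-functional, was lower in tanks on day 5, with arrays at 10.73, 10.67 and 10.92 in tanks against 12.48, 12.47 and 12.37 in vials. The difference was -1.67 (SE 0.14, adjusted p = 8.23e-08), and it was -0.87 on day 10. Between days 2 and 5 GPM2 fell by 0.84 in tanks and rose by 1.03 in vials, a scale difference of -1.87 (SE 0.20, adjusted p = 1.63e-06). ERR3, an enolase-related gene whose probe set is shared with near-identical copies and is uncertain, was higher in tanks on day 10 (0.52). GPM3 was not called between the scales.

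Counts over time are given for upper glycolysis and the regulators, with no test between lists. Between days 2 and 5 in vials, 6 of the 8 upper glycolysis genes and 6 of the 6 regulators were higher on day 5, with PFK2 at 0.72 and RAP1 at 1.86, beside 0 of the 8 lower glycolysis genes and 26.5% of all genes higher. In tanks over the same step, 1 upper glycolysis gene was higher and 1 lower, and 5 regulators were higher and 1 (GCR1) lower, beside 3 of the 8 lower glycolysis genes in either direction and 73.3% of all genes. Between days 5 and 10 in vials 4 upper glycolysis genes were lower, with PFK1 at -0.63 and PFK2 at -0.48, beside TDH3, PGK1 and ENO2 and 19.5% of all genes lower, while 3 regulators were higher and 1 lower. In tanks over that step 3 of the 8 upper glycolysis genes and 0 of the 6 regulators were called by limma, beside 1 of the 8 lower glycolysis genes and 39% of all genes.

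Correlations among the lower glycolysis genes over the 18 arrays ranged from -0.32 (TDH1 with PYK2) to 0.976. TDH3 and ENO2 were closest to each other, with a Pearson r of 0.976, and ENO2 was the gene most like TDH3 among the 4929 others with a standard symbol and a signal above background. PGK1 had an r of 0.84 with ENO2, 0.80 with TDH3 and 0.76 with ENO1, GPM1 had 0.75 with both TDH3 and ENO2, and ENO1 had 0.70 with CDC19. Next for TDH3 were SEC53, a phosphomannomutase (0.953), and SSB1, a chaperone of the ribosome (0.950), and for ENO2 the ribosomal protein gene RPL16B (0.958) and SEC53 (0.950). PGK1 was most like MRH1, a plasma membrane protein (0.985), PMA1, the plasma membrane proton pump (0.969), and the cyclophilin CPR1 (0.963). CDC19 had an r of -0.0090 with TDH3 and 0.078 with ENO2, and was most like SCW4, a cell wall protein (0.913). ENO1 was most like HIS5 (0.898), DOG1 (0.891) and PGI1, the isomerase of upper glycolysis (0.879), and GPM1 like PDX3 (0.878) and TPI1 (0.857). PYK2 was most like TDP1 (0.940), VHR2 (0.927) and SCC4 (0.924), and had an r of 0.511 with CDC19. TDH1, with a range of 0.10 over all arrays, reached at most 0.771, with TAF14. These values describe the same 18 arrays, whose groups and normalization all genes share, and 7 of the 8 genes lie near the top of the scale.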

How the data were processed

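Total RNA (100 ng) was amplified and 7.5 µg of labelled product hybridised per array, per the labels' protocols. The deposited values are probe set intensities on a linear scale (4.79 to 39396), made with RMA in the Affymetrix Expression Console, per the submitters' processing notes, with versions not given in the sources used here. Here log2 was taken.

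Of 10928 probe sets, 213 controls, 1 with several genes, 1746 listed with genes outside the S. cerevisiae reference (taken as S. pombe) and 3470 without a listed gene were left out. The other 5498 stood for 5449 genes, and the brightest probe set was kept for 47 genes with several. Names came from RefSeq R64. With 3 arrays per group, the number of arrays limits the precision.

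limma 3.58.1 in R 4.3.3 was fitted to 6 group means (12 residual df). Benjamini-Hochberg adjustment ran over all genes within each of the 9 comparisons, with calls at 0.05. The method was tested on simulated data. Members and lists were chosen with earlier results of these data known. Context genes were drawn from the up to 3 largest called genes per direction of a list and comparison, and like genes from the 3 with the highest r. Not all of these are named. In addition, GCR1, GPM2 and genes given on all days were singled out after their values were seen. Figures used Python 3.11.15, matplotlib 3.10.9 and pandas 2.3.3. Alternatives are given in the closing section. The promoter motif counts that had been planned were not run, and no sequence is shown here.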

Additional observations from a re-analysis of the deposited data

Results flagged for a closer look

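The change between days 2 and 5 differed between tanks and vials for 2 of the 8 genes by the interaction term of the limma fit. It was -0.34 for ENO2 (adjusted p = 0.0155), with 14.87, 14.56 and 14.44 in tanks and 14.69, 14.72 and 14.34 in vials as group means on days 2, 5 and 10. It was 0.65 for PYK2 (adjusted p = 0.0136), with group means of 9.55, 10.07 and 9.45 in tanks and 9.21, 9.08 and 9.09 in vials.

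The array also carries control probe sets for gpd3, a glyceraldehyde phosphate dehydrogenase gene of S. pombe, which the comparisons above do not use. All 4 lay above the background of 4.48 on every array of this S. cerevisiae strain. The lowest array read 6.63 for the 3′ probe set, 5.36 for the 5′ one, 7.24 for the middle one and 8.75 for the shared middle one, and the highest 7.26, 6.21, 9.36 and 9.72. The middle one had group means of 7.87, 8.45 and 8.46 in tanks and 7.28, 8.90 and 9.05 in vials on days 2, 5 and 10. Why these probe sets read above background was not tested.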

How the results depend on the processing

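The counts of lower glycolysis genes called were 2, 1 and 2 between the scales on days 2, 5 and 10, 0 and 3 over the steps between days 2 and 5 and between days 5 and 10 in vials, 3 and 1 in tanks, and 2 and 0 for the scale-dependent changes. No gene's call changed direction. Leaving out each array in turn gave 0 to 2, 1 to 3, 0 to 2, 0 to 0, 2 to 3, 3 to 3, 1 to 2, 2 to 3 and 0 to 1, in that order. Repeated quantile normalization gave 1, 3 and 0 between the scales on days 2, 5 and 10 and 1 for the scale-dependent change between days 2 and 5. Of all genes it called 4273, 3356, 3191 and 3169 in these comparisons. It moved the median of all genes to 0.11, against -0.012, on day 2, and to -0.045, against -0.16, between days 2 and 5 in vials. Median centring gave 4 on day 2, 1 on day 10 and 2 between days 2 and 5 in vials, with 4227, 3177 and 3642 of all genes. The trended robust prior gave 4, 3 and 4 between the scales, 1 and 6 in vials, and 2 between days 5 and 10 in tanks. Of all genes it called 4206, 3373, 3195, 3700, 1744 and 2140 in these comparisons. Array weights gave 3 on day 5, 5 between days 5 and 10 in vials, 3 in tanks, and 2 for the later scale-dependent change. Of all genes they called 3832, 3019, 3257 and 1690 in these comparisons, more than the main fit in each. Fitting only the groups compared gave 1 on day 2, 0 on day 10 and 0 between days 5 and 10 in tanks. Of all genes it called 4324, 2622 and 1156 there. Requiring a 2-fold change gave 0 in all 7 comparisons that had calls, where it left between 144 and 1742 of all genes. Except where given above, the cause was not tested. With the replicate number as a block the day 2 count was 1, and the other counts stayed within 1.5 times. The replicate numbers showed no steady pairing of the arrays: over 45 pairs of groups and numbers the correlation of deviations had a median of -0.036 (range -0.47 to 0.76), with 15 over 0.1. An array correlated best with its own number in 23 of 90 cases. Both measures include tanks set against vials, which cannot share a vessel. Between days 5 and 10 replicates 1, 2 and 3 gave -0.47, 0.38 and 0.76 in tanks and -0.24, -0.012 and -0.055 in vials. The consensus correlation within scale and replicate number was -0.019. Whether some vessels were sampled on more than 1 day cannot be told from these values. Whether the upper end of the scale compresses the 7 bright genes was not tested.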
